A study of Mus musculus with 15 samples.

Results

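The 9 genes described here encode the upper layers of fibroblast growth factor (FGF) signalling in mouse epiblast-like cells (EpiLCs): the ligands Fgf4, Fgf8 and Fgf15, the receptors Fgfr1, Fgfr2, Fgfr3 and Fgfr4, the docking adaptor Frs2, and Il17rd, a membrane inhibitor of the pathway also known as Sef. They were taken by name, through their Ensembl identifiers, from a table of 52636 genes. All 9 were in the table, 8 of them passed the filter on low counts that left 13451 genes for testing, and Fgfr4 did not.

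FGF ligands bind receptor tyrosine kinases together with heparan sulphate, and the activated receptor phosphorylates FRS2, which recruits GRB2, SOS and SHP2 and so switches on RAS, RAF, MEK and ERK. ERK in turn raises the transcription of several inhibitors of its own pathway, and such negative feedback is a hallmark of FGF signalling. In early mouse embryos and embryonic stem cells, FGF4 acting mainly through FGFR1 drives the exit from naive pluripotency.

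Cells of the line CRAFR26 carry a c-RAF kinase construct that 4-hydroxytamoxifen (4OHT) activates, so that ERK can be switched on below the receptor. Embryonic stem cells were passaged 2 times as RSCs and then kept for 48 h in EpiLC medium with 12 ng/ml bFGF, 20 ng/ml Activin A and 1 µM XAV939. All groups, the 0h controls included, were treated for 2 h with 250 nM of the FGF receptor inhibitor PD17. They were then collected without 4OHT (0h, n = 3), after 2 h in 250 nM 4OHT (2h, n = 4), after 4 h (4h, n = 4), or after 4 h followed by 2 h with a MEK inhibitor (rev, n = 4). None of these samples received 4OHT without the construct or the MEK inhibitor without 4OHT. None was kept beyond 4 h of 4OHT without the inhibitor. The labels do not say whether PD17 stayed on the cells during induction. Each group came from 2 clones, clone 4 and clone 8, with 2 samples of each except for 1 sample of clone 4 at 0h. Samples of a clone are not stated to be separate cultures, so the p-values measure the spread between these samples, part of which may be technical.

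The 4h libraries stood apart. They held 1552022 to 6658950 counts, against 8667880 to 13004556 in the other 11 libraries, and mitochondrial genes took 7.21% to 12.4% of their counts, against 2.67% to 6.98%. A count of 3 corresponded to 0.683 to 1.83 CPM (counts scaled to a common library total with TMM size factors) at 4h and to 0.161 to 0.423 CPM elsewhere. Scaling by total counts in place of TMM put the median log2 change of all tested genes at -0.18 from 0h to 2h, -0.73 from 0h to 4h, -0.57 from 2h to 4h, 0.45 from 4h to rev and -0.30 from 0h to rev. With it, higher genes fell from 52.0% to 7.11% of the calls in 4h vs 0h, from 50.6% to 9.10% in 4h vs 2h and from 58.2% to 31.7% in rev vs 0h, and rose from 49.2% to 88.0% in rev vs 4h. The 8 epiblast markers had counts in every library, and their summed level was 1422 to 1743 CPM at 0h, 1290 to 1557 at 2h, 957 to 1007 at 4h and 1165 to 1292 in rev. Dnmt3b made up most of that sum at 0h (935 ± 109 CPM, SD, n = 3) and fell to 416 ± 17.9 at 4h (SD, n = 4), while Sox2 (2.34) and Otx2 (1.13) of the same list were higher in 4h vs 0h. Naive markers summed to 17.6 to 24.7 CPM at 0h and 41.0 to 161 at 4h, neural markers to 20.6 to 27.5 and 48.3 to 69.9, and in rev they summed to 21.8 to 29.5 and 19.5 to 25.1. Within the neural list, Pax6, Sox1 and Olig2 were higher in 4h vs 0h, while Tubb3 was lower (-0.50, edgeR adjusted p = 0.0137). Olig2 lost that call with total-count scaling (0.64, edgeR adjusted p = 0.247). Sox1 (1.29) and Pax6 (1.60) were still higher and Tubb3 (-0.60) was lower in rev vs 0h. With total-count scaling Sox1 and Pax6 lost that call (edgeR adjusted p = 0.0523 and 0.0545), while Tubb3 kept it. Otx2 lost its call in 4h vs 0h with that scaling (0.39, edgeR adjusted p = 0.282), while Sox2 kept its own. Trophoblast markers summed to 1.21 to 2.16 CPM at 0h and 5.28 to 9.87 at 4h with Elf5 at 0 in all 4h libraries, and feeder fibroblast markers to 4.14 to 10.5 and 0.377 to 6.11 with Col1a2 at 0. Primitive endoderm markers summed to 2.47 to 3.40 CPM at 0h and 5.29 to 7.43 in rev, and mesendoderm markers to 2.81 to 3.40 and 6.74 to 11.3. The part of depth and of these marker lists in the results below was not tested. In bulk RNA, fewer cells of a type and less RNA per cell cannot be told apart.

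Promoter sequence is shown for the ligand, the adaptor and the inhibitor that carry most of the results below and for which the RefSeq promoter table held an entry. That table (GRCm38.p6) matched 6 of the 9 genes. Each stretch lies before the RefSeq start and outside all GENCODE M21 exons, and reads 5′ to 3′ on the strand of the gene. Those of Frs2 and Il17rd end at the GENCODE start of the gene, while that of Fgf4 lies inside the GENCODE gene, which begins further upstream at 144847367. They are printed with GC boxes (GGGCGG) and TATA motifs (TATANA) in capitals.
Fgf4, chr7:144861136-144861385, plus strand: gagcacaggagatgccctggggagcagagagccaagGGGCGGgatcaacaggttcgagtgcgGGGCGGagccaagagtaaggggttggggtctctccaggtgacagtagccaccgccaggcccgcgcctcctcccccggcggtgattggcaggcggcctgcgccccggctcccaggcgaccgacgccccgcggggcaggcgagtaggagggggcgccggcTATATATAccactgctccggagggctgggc
Frs2, chr10:117148535-117148724, minus strand: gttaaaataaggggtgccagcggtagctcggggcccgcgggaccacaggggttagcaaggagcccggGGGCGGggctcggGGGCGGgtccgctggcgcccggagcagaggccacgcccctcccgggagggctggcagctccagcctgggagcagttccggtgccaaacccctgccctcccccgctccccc
Il17rd, chr14:27038751-27038940, plus strand: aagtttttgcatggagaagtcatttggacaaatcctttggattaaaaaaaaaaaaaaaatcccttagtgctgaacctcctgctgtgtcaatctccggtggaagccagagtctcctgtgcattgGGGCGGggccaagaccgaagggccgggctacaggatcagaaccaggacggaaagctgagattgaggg

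The 3 stretches differ in these motifs. Fgf4 held 2 GC boxes and a TATA run, Frs2 held 2 GC boxes, and Il17rd held 1. Both strands of the 250 bases before the start were searched for each of the 6 matched genes. A GC box was in 32.7% of 32851 such promoter windows and in those of Fgf4, Fgfr3, Fgfr4, Frs2 and Il17rd. The TATA motif was in 22.6% of windows and only in that of Fgf4 among the 6. The ETS motif CCGGAAGT, the letters bound by factors that ERK phosphorylates, was in 2.88% of windows and only in that of Frs2 among the 6, in a part that the annotation gives as exon and that is not printed. The AP-1 motif TGANTCA (6.75% of windows) and the CArG box (1.47%) were in none of the 6. The motif matches are a description of sequence.

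Before induction the genes spanned a wide range of levels. Levels are compared between genes as RPKM, here CPM per kilobase of annotated exon, each with the SD over 3 libraries. Fgf4 was the highest with 26.9 ± 2.96 RPKM, followed by Fgfr1 with 7.84 ± 0.140 and Frs2 with 2.75 ± 0.260. Fgf15 (2.19 ± 0.382), Fgfr2 (1.81 ± 0.211), Il17rd (1.49 ± 0.364) and Fgf8 (0.731 ± 0.409) came next, and each gene from Frs2 to Fgf8 overlapped its neighbour in this order in the range of its libraries. Fgfr4 with 0.226 ± 0.0411 and Fgfr3 with 0.116 ± 0.0483 were the lowest. Of the summed RPKM of the 4 receptors at 0h, Fgfr1 took 78.5% ± 2.34, Fgfr2 18.1% ± 1.56, Fgfr4 2.26% ± 0.347 and Fgfr3 1.15% ± 0.446 (SD, n = 3).

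**Figure D1:**
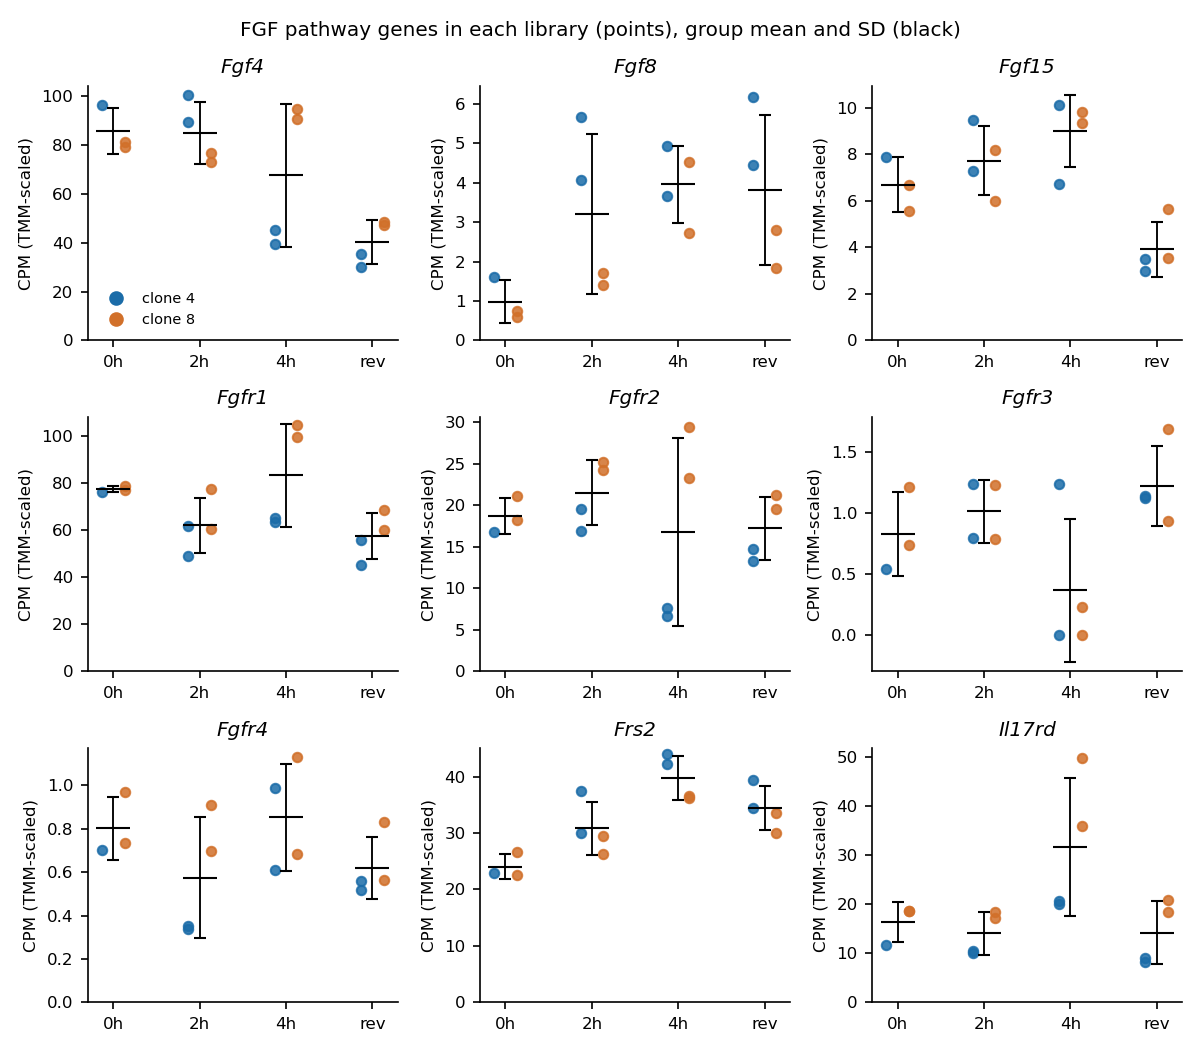
TMM-scaled CPM (y axis, linear, a separate scale for each gene) of the 9 genes in each of the 15 libraries by group (x axis), with clone 4 in blue and clone 8 in orange; black marks are the group mean and SD. Il17rd was highest at 4h within each clone, Fgf4 in rev was below every 0h library, and the 4h libraries of the clones lay apart for Fgf4 and Fgfr2.

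The first comparison, 2h vs 0h, asked for the early response to ERK. Of the 8 tested genes 1 changed, the ligand Fgf8, which was higher, while 3.98% of all tested genes were called higher and 2.46% lower (6.45% in all). In this comparison none of the 8 had every 2h library above or every one below all 0h libraries, as 10.1% and 8.99% of all tested genes had. The median log2 fold change of the 8 genes was 0.25, beside 0.01 over all tested genes. Fgf8, a ligand that patterns the gastrulating embryo and the midbrain, rose by 1.41 on the log2 scale (SE 0.303, edgeR adjusted p = 0.00597). After 4 h of 4OHT, 3 of the 8 were higher than at 0h and none was lower, namely Fgf8, Il17rd and Frs2, while 20.5% of all tested genes were called higher and 18.9% lower (39.4% in all). With total-count scaling Fgf8 alone of these was called higher (1.09, adjusted p = 0.0301), and Fgf4 (-1.12, adjusted p = 0.000403) and Fgfr2 (-0.94, adjusted p = 0.00645) were called lower. The median of the 8 was 0.29, beside 0.03 over all tested genes. Between 2h and 4h, Fgfr1, Frs2 and Il17rd were higher at 4h and none of the 8 was lower, while 19.7% of all tested genes were called higher and 19.2% lower (38.9% in all). With total-count scaling none of those 3 was called, and Fgf4 (-0.90, adjusted p = 0.00355), Fgfr2 (-1.03, adjusted p = 0.00221) and Fgfr3 (-1.80, adjusted p = 0.0161) were called lower. With TMM the median of the 8 was 0.30, beside -0.01 over all. The comparisons with 0h share the same 3 control libraries.

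**Figure D2:**
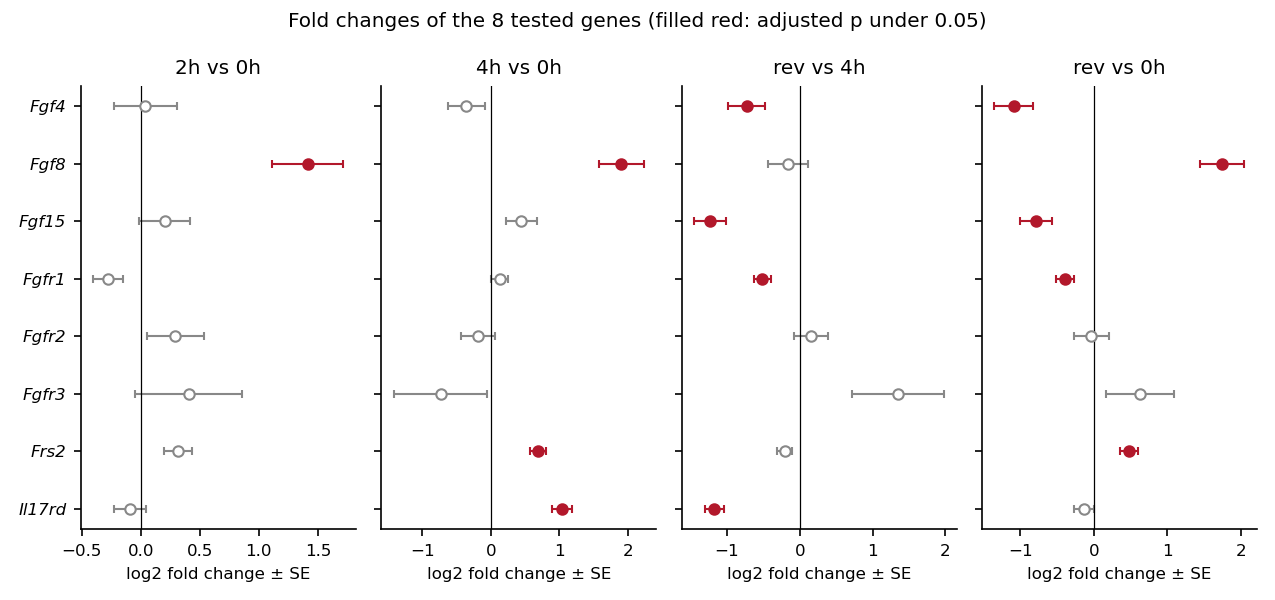
Log2 fold changes (x axis, ± SE) of the 8 tested genes (y axis) in 4 comparisons from the model of all 15 libraries; filled red points have an edgeR adjusted p under 0.05. Fgf8, Frs2 and Il17rd were higher in 4h vs 0h, and Fgf4, Fgf15, Fgfr1 and Il17rd were lower in rev vs 4h; with total-count scaling, only Fgf8 of the first 3 and only Il17rd of the last 4 remained called, Frs2 in 4h vs 0h was at -0.01 where the median of all genes was at -0.73, and Fgf4 and Fgfr2 were called lower in 4h vs 0h.

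Among the ligands, Fgf8 had 1.62, 0.735 and 0.606 CPM at 0h in clone4_1, clone8_1 and clone8_2. With both clone 4 libraries ahead of both clone 8 libraries, an order kept below, Fgf8 had 5.67, 4.07, 1.40 and 1.71 CPM at 2h, 3.67, 4.94, 2.73 and 4.52 at 4h. The rev libraries had 6.17, 4.44, 1.83 and 2.80 CPM. At 2h the clone 4 libraries were well above those of clone 8, whose levels were close to the single clone 4 library at 0h, so the groups overlapped. At 4h and in rev every library was above every 0h library, as was so for 18.2% and 14.7% of all tested genes. Fgf8 was 3.73-fold higher at 4h than at 0h (log2 1.90, SE 0.330, adjusted p = 0.000118) and 3.34-fold higher in rev (1.74, SE 0.305, adjusted p = 0.000652). Between 4h and rev the difference was -0.16 (SE 0.279, adjusted p = 0.708), and 1 of its 4h libraries, clone8_2, turned this difference to 0.10 when left out. Fgf8 was also lower in clone 8 than in clone 4 over all groups (-1.15, SE 0.199, adjusted p = 0.000291). These values rest on few reads, 5 to 30 per library at 0h and 6 to 20 at 4h. The 2h call was lost without 0h clone4_1 (adjusted p = 0.0579), without the clone term (0.111) and with total-count scaling (0.136).

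Fgf4, the main FGF ligand of pluripotent cells, had 96.6, 81.4 and 79.3 CPM at 0h and 89.5, 101, 73.3 and 76.7 CPM at 2h. At 4h it had 39.7 and 45.2 CPM in clone 4 but 94.9 and 90.8 CPM in clone 8, and in rev 35.2, 29.9, 48.5 and 47.2. The 0h and 2h libraries overlapped, and the difference was 0.04 (SE 0.266, adjusted p = 0.957). Over both clones the 4h vs 0h difference was -0.35 (SE 0.266, adjusted p = 0.319) and did not pass the test, while with total-count scaling it was -1.12 (adjusted p = 0.000403), or -0.39 relative to the median of all genes. All rev libraries were below all 0h libraries, as was so for 11.3% of all tested genes. Fgf4 fell by 1.08 on the log2 scale from 0h to rev (SE 0.264, adjusted p = 0.0224) and by 0.73 from 4h to rev (SE 0.250, adjusted p = 0.0445). The fall from 0h was lost without 0h clone4_1 (adjusted p = 0.161), rev clone4_2 (0.0665) or rev clone8_2 (0.0508), and with the replicate number as a block (0.0717). The fall from 4h did not pass in 6 of 8 leave-one-out fits, those without either clone 8 library of 4h or any library of rev (adjusted p from 0.0670 to 0.117), with the block (0.0866) and with total-count scaling (-0.32, adjusted p = 0.370; -0.76 relative to the median of all genes).

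Fgf15, the mouse counterpart of human FGF19, had 7.88, 5.55 and 6.66 CPM at 0h, 7.26, 9.46, 8.20 and 5.999 at 2h, 6.72, 10.1, 9.33 and 9.80 at 4h. The rev libraries had 3.50, 2.99, 5.64 and 3.53 CPM. The rev libraries were below every 4h library, as was so for 10.8% of all tested genes, and 1 of them, clone8_1, was within the range of 0h. Fgf15 fell by 1.23 on the log2 scale from 4h to rev (SE 0.217, adjusted p = 0.00018) and by 0.79 from 0h to rev (SE 0.218, adjusted p = 0.0225). Its differences from 0h at 2h (0.20, SE 0.213, adjusted p = 0.641) and at 4h (0.44, SE 0.225, adjusted p = 0.122) did not pass the test. With total-count scaling the fall from 4h was -0.80 (adjusted p = 0.0590), or -1.25 relative to the median of all genes. The fall from 0h was lost without 0h clone4_1 (adjusted p = 0.223), rev clone4_1 (0.0587), rev clone4_2 (0.0854) or rev clone8_2 (0.0785). Of the 3058 annotated exon bases of Fgf15, 787 are shared with the opposite-strand genes Gm26793 and Gm39119, and the strand setting of the counting is not given in the sources used here.

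Fgf4 (chr7:144847367-144865243, plus strand, GENCODE M21 on GRCm38) and Fgf15 (chr7:144896531-144900953, plus strand) lie in 1 cluster with Fgf3 and the cyclin gene Ccnd1. Ccnd1, which promotes entry into the cell cycle, was lower in rev than at 4h (-0.35, SE 0.107, adjusted p = 0.0165) and than at 0h (-0.69, SE 0.113, adjusted p = 0.000332). It was also lower than at 0h at 2h (-0.55, adjusted p = 0.004) and 4h (-0.34, adjusted p = 0.0214), where Fgf4 and Fgf15 did not pass the test. Ccnd1 overlaps LTO1 on the opposite strand. Of the other tested protein-coding genes within 500 kb, which were Shank2, Cttn, Ppfia1, Fadd, Fgf3, LTO1 and Tpcn2, none passed the test in rev vs 4h or in rev vs 0h. Of all tested genes, 30.8% were called in rev vs 4h and 11.2% in rev vs 0h. Over 15 libraries of 4 groups and unequal depth, log2 CPM of Fgf4 and Fgf15 had a Pearson correlation of 0.69. This neighbourhood was looked at after the falls of Fgf4 and Fgf15 had been seen.

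**Figure D3:**
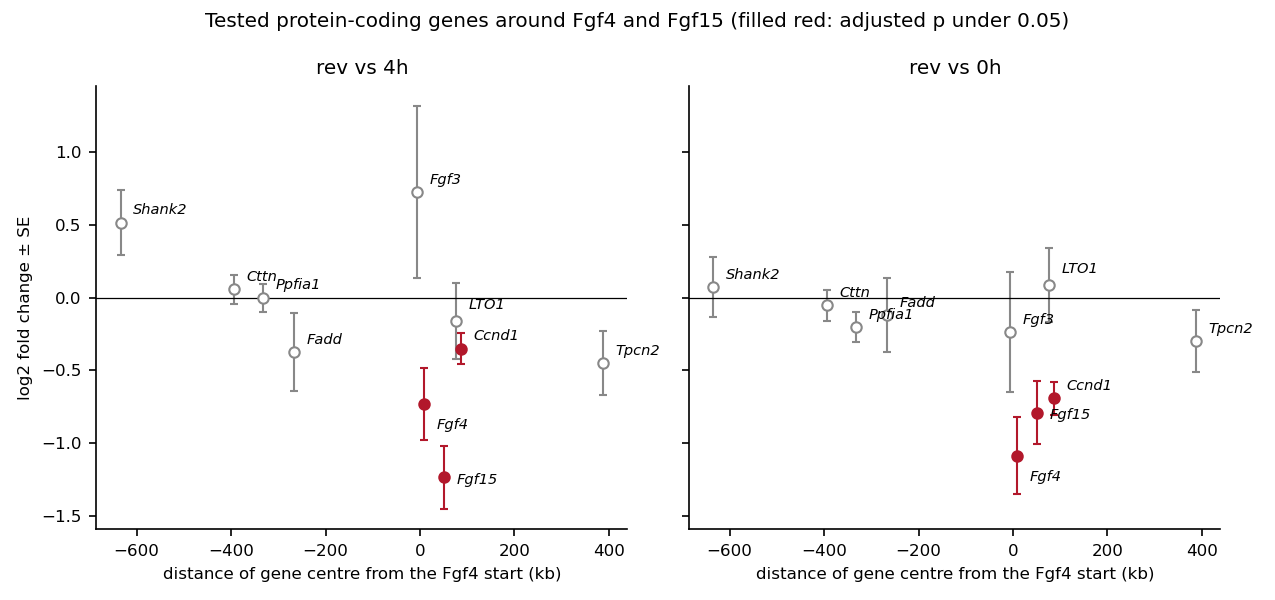
Log2 fold changes (y axis, ± SE) of the tested protein-coding genes around Fgf4 and Fgf15, by distance of the gene centre from the annotated Fgf4 start in kb (x axis), in rev vs 4h and rev vs 0h; filled red points have an edgeR adjusted p under 0.05. Fgf4, Fgf15 and Ccnd1 were the only filled points in both panels, in comparisons that called 30.8% and 11.2% of all tested genes.

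Among the receptors, Fgfr1, the main FGF receptor of the epiblast, had 76.3, 79.0 and 77.0 CPM at 0h and 61.7, 48.9, 60.4 and 77.3 CPM at 2h. It had 65.4, 63.7, 105 and 99.5 CPM at 4h and 55.7, 45.3, 68.8 and 60.2 in rev. Clone 8 was above 0h at 4h and clone 4 below it. All rev libraries were below all 0h libraries, as was so for 11.3% of all tested genes. Fgfr1 did not pass the test in 2h vs 0h (-0.28, SE 0.124, adjusted p = 0.203) or 4h vs 0h (0.13, SE 0.126, adjusted p = 0.438). It was higher at 4h than at 2h (0.40, SE 0.117, adjusted p = 0.00869), a value of -0.13 with total-count scaling, or 0.44 relative to the median of all genes. In rev it was lower than at 4h (-0.52, SE 0.117, adjusted p = 0.00188) and, close to the threshold, than at 0h (-0.39, SE 0.124, adjusted p = 0.046). The last call did not hold in 5 of 7 leave-one-out fits, those without 0h clone4_1 (adjusted p = 0.414), 0h clone8_1 (0.0636), rev clone4_2 (0.134), rev clone8_1 (0.0516) or rev clone8_2 (0.148), and with the replicate block (0.0778). With total-count scaling both falls lost their calls, at -0.12 from 4h (adjusted p = 0.756; -0.57 relative to the median of all genes) and -0.72 from 0h (adjusted p = 0.0984).

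Fgfr2, which in the early embryo is best known from the primitive endoderm and trophoblast, had 16.8, 18.2 and 21.1 CPM at 0h, 16.9, 19.5, 24.2 and 25.2 at 2h, 6.72, 7.65, 23.2 and 29.4 at 4h. The rev libraries had 14.8, 13.3, 19.6 and 21.3 CPM. Its 4h libraries split by clone, with those of clone 4 below all other libraries. Fgfr2 did not pass the test in any of the 5 group comparisons (4h vs 0h -0.18, SE 0.246, adjusted p = 0.584), though with total-count scaling it was called lower at 4h than at 0h (-0.94, adjusted p = 0.00645) and than at 2h (-1.03, adjusted p = 0.00221), and was higher in clone 8 than in clone 4 (0.74, SE 0.168, adjusted p = 0.0058). Fgfr3 did not pass the test in any comparison either, though with total-count scaling it was called in 4h vs 2h (-1.80, adjusted p = 0.0161) and rev vs 4h (1.86, adjusted p = 0.0216). It had 7 to 23 counts per library at 0h, 2h and rev, and 0, 5, 1 and 0 at 4h, where a count of 3 stood for up to 1.83 CPM, so a level like that at 0h (0.8289 ± 0.345 CPM, SD, n = 3) could not be told from absence in the shallowest library. Fgfr4 had 1 to 17 counts per library, with group means from 0.576 CPM at 2h to 0.853 CPM at 4h. Of Fgfr3's 7158 exon bases, 998 are shared with the opposite-strand gene G630022F23Rik, of Fgfr2's 10328 bases 314 with Ctbp2 on the same strand, and of Fgfr1's 9875 bases 164 with Gm16159.

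The makeup of the receptors, a ratio within each library that no scaling can move, had Fgfr1 in the lead in every group. Its share of the summed receptor RPKM was 72.4% ± 3.60 at 2h, 82.6% ± 5.42 at 4h and 74.3% ± 2.06 in rev (SD, n = 4). The share of Fgfr2 was 24.1% ± 3.16 at 2h, 14.3% ± 6.12 at 4h and 21.2% ± 2.07 in rev. At 4h the clones split, with Fgfr2 counts at 10.3% and 12.0% of those of Fgfr1 in clone 4 and 22.2% and 29.5% in clone 8. At 0h this ratio was 22.0% in clone 4 and 23.1% and 27.4% in clone 8. Counts of Il17rd were 21.1% ± 4.93 of those of Fgfr1 at 0h (n = 3), 22.6% ± 5.64 at 2h, 36.9% ± 8.83 at 4h and 24.0% ± 8.44 in rev (SD, n = 4), and every 4h library was above every library at 0h and 2h. Counts of Fgf4 were 111% ± 13.6 of those of Fgfr1 at 0h and 69.6% ± 6.63 in rev, without overlap. Over 6 such ratios and 5 comparisons, 30 two-sided exact permutation tests were run, whose smallest possible p was 0.0286, and the lowest Benjamini-Hochberg adjusted p was 0.143, so none passed the threshold.

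Frs2, the adaptor that couples FGF receptors to RAS, rose. It had 22.9, 22.5 and 26.7 CPM at 0h, 30.1, 37.5, 29.4 and 26.3 at 2h, 42.2, 43.9, 36.2 and 36.6 at 4h. The rev libraries had 34.5, 39.4, 33.6 and 30.0 CPM. Every 4h and every rev library was above every 0h library, as was so for 18.2% and 14.7% of all tested genes. At 2h only clone8_2 was within the range of 0h. Frs2 was 1.61-fold higher at 4h than at 0h (log2 0.69, SE 0.120, adjusted p = 0.000125), a value of -0.01 with total-count scaling, or 0.72 relative to the median of all genes. It was higher at 4h than at 2h (0.37, SE 0.109, adjusted p = 0.0104; -0.16 with total-count scaling, 0.42 relative to the median) and in rev than at 0h (0.48, SE 0.118, adjusted p = 0.0111). The 2h vs 0h difference of 0.32 (SE 0.117, adjusted p = 0.112) and the rev vs 4h difference of -0.21 (SE 0.109, adjusted p = 0.155) did not pass the test. The rev vs 0h call was lost without 0h clone4_1 (adjusted p = 0.162) and with total-count scaling (0.756), and the 4h vs 2h call was lost with no filter on low counts (0.185). Frs2 lies at chr10:117069427-117148534 (minus strand) and shares no exon base with another annotated gene.

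Il17rd, which inhibits FGF signalling at the receptor and at MEK and ERK, had 11.8, 18.7 and 18.7 CPM at 0h and 10.5, 10.2, 18.4 and 17.1 CPM at 2h. It had 20.2, 20.7, 36.0 and 49.8 CPM at 4h and 9.11, 8.26, 18.5 and 20.9 in rev. Within each clone the 4h libraries were above all others, and over both clones all 4h libraries were above all 0h and 2h libraries. This was so against 0h for 18.2% and against 2h for 12.8% of all tested genes. Il17rd did not pass the test at 2h (-0.09, SE 0.138, adjusted p = 0.766) and was 2.06-fold higher at 4h than at 0h (log2 1.04, SE 0.142, adjusted p = 7.91e-06) and higher than at 2h (log2 1.13, SE 0.131, adjusted p = 8.63e-07). From 4h to rev it fell by 1.18 on the log2 scale (SE 0.131, adjusted p = 8.79e-07), and the difference of rev from 0h was -0.13 (SE 0.137, adjusted p = 0.567). It was higher in clone 8 than in clone 4 over all groups (0.94, SE 0.0959, adjusted p = 4.92e-07). With total-count scaling the 4h vs 0h value was 0.30 (adjusted p = 0.399), or 1.03 relative to the median of all genes, and without the clone term its adjusted p was 0.084. With that scaling the 4h vs 2h value was 0.60 (adjusted p = 0.0757) and lost its call, and the fall from 4h to rev measured -0.77 and was called (adjusted p = 0.0341). Il17rd lies at chr14:27038941-27107286 (plus strand) and shares no exon base with another annotated gene.

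The MEK inhibitor comparison, rev vs 4h, asked which of these levels had moved back after 2 h with the inhibitor. No samples were collected after that time without it, so the inhibitor and the added time cannot be told apart. In rev vs 4h, 4 of the 8 genes were lower (Fgf4, Fgf15, Fgfr1 and Il17rd) and none was higher, while 15.6% of all tested genes were called lower and 15.1% higher (30.8% in all). With total-count scaling Il17rd alone of the 4 was called, and Fgfr3 was called higher. The median of the 8 was -0.36, beside 0.02 over all tested genes. In rev vs 0h, Fgf8 and Frs2 were higher and Fgf4, Fgf15 and Fgfr1 lower, 5 of 8, while 6.49% of all tested genes were called higher and 4.66% lower (11.2% in all). With total-count scaling Fgf8, Fgf4 and Fgf15 were called and Fgfr1 and Frs2 were not. The median of the 8 was -0.08 there, beside 0.02 over all. Of the 3 genes higher at 4h than at 0h, Il17rd alone was also lower in rev than at 4h, and the values of Fgf8 and Frs2 in rev were -0.16 and -0.21 from 4h. The comparisons share the 4h and 0h libraries.

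The clones were then compared, each with its own group levels. Over all groups, 4 of the 8 genes differed between the clones (Fgfr1, Fgfr2 and Il17rd higher and Fgf8 lower in clone 8), while 10.4% of all tested genes were higher and 8.11% lower (18.5% in all). The courses differed for 2 of the 8 in the joint test of the 3 interaction terms, Fgf4 (adjusted p = 5.62e-05) and Fgfr2 (adjusted p = 0.00174), while 3.18% of all tested genes were called. From 0h to 4h, Fgf4 changed by -1.18 (SE 0.144) in clone 4 and by 0.21 (SE 0.120) in clone 8, a difference of 1.39 (SE 0.189, adjusted p = 0.000111), and 3.87% of all tested genes were called in this test. For Fgfr2 the values were -1.21 (SE 0.206) in clone 4 and 0.42 (SE 0.163) in clone 8, a difference of 1.62 (SE 0.264, adjusted p = 0.000711). From 4h to rev, Fgfr2 changed by 0.95 in clone 4 and by -0.36 in clone 8, a difference of -1.31 (SE 0.244, adjusted p = 0.00387), in a test that called 2.8% of all tested genes. From 2h to 4h, Fgf4 changed by -1.16 in clone 4 and by 0.31 in clone 8, a difference of 1.47 (SE 0.173, adjusted p = 4.78e-05), and Fgfr2 by -1.33 and 0.09, a difference of 1.41 (SE 0.243, adjusted p = 0.00188), where 3.14% of all tested genes were called. From 0h to 2h (0.23% of all tested genes) and from 0h to rev (0.0818%) no clone difference of the 8 genes was called by edgeR, with 0 and 1 at an unadjusted p under 0.05; the latter was Fgf4 (0.82, SE 0.188, adjusted p = 0.0948), at -1.57 in clone 4 and -0.75 in clone 8. These Fgf4 and Fgfr2 differences at 4h were also called in each of the 14 fits that left out 1 library, but not with total-count scaling or after thinning. For Il17rd, Frs2 and Fgf8 the 4h vs 0h changes were 0.80, 0.91 and 1.45 in clone 4 and 1.19, 0.57 and 2.35 in clone 8, and their clone differences of 0.40 (SE 0.264), -0.34 (SE 0.233) and 0.90 (SE 0.584) did not pass the test (adjusted p = 0.501, 0.51 and 0.486). The 0h level of clone 4 rests on 1 library. The 4h libraries differ in depth within each clone, with 1552022 and 6658950 counts in clone 4 and 6209289 and 3492073 in clone 8.

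**Figure D4:**
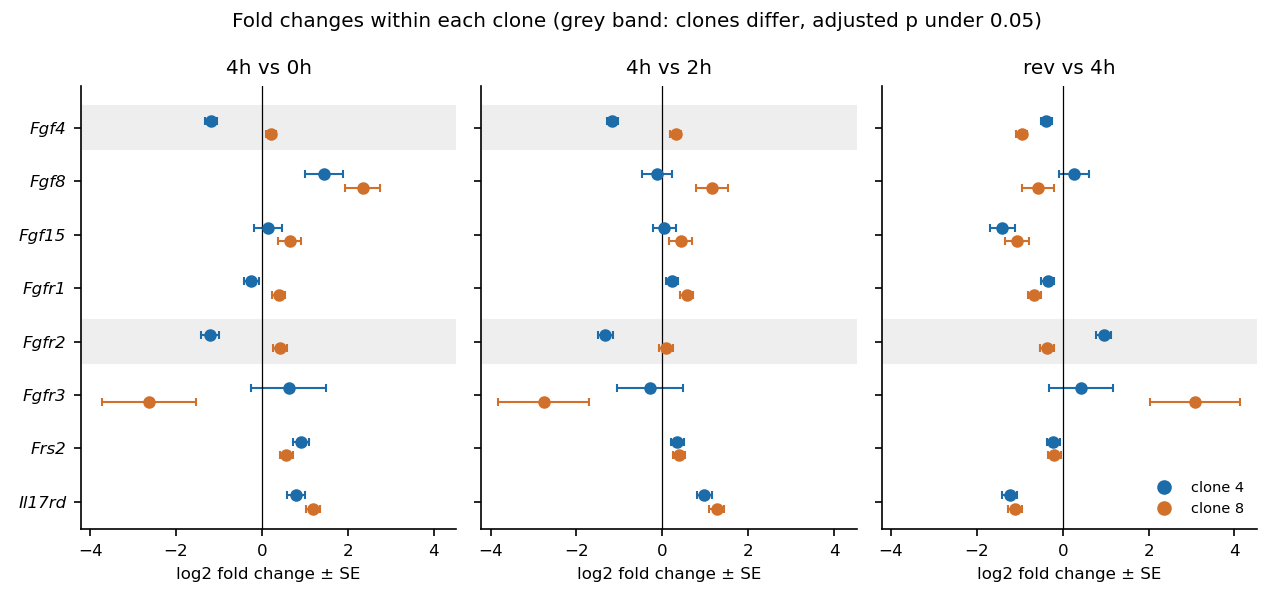
Log2 fold changes (x axis, ± SE) of the 8 tested genes (y axis) within clone 4 (blue) and clone 8 (orange) in 3 panels, 4h against 0h and 2h, then rev against 4h; grey bands mark genes whose change differed between the clones at an edgeR adjusted p under 0.05. Fgf4 and Fgfr2 were lower at 4h in clone 4 only (-1.18 and -1.21 against 0h), and these differences were not called with total-count scaling; the clone 8 values of Fgfr3 rest on 1 and 0 counts at 4h.

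Other genes of the pathway were read from lists of related genes. Of 12 feedback and FGF synexpression genes, 11 were in the table and tested. At 2h, 5 were higher (Spry4, Dusp6, Spry2, Spred3 and Spred1) and Etv4 was lower, and at 4h 9 were higher than at 0h, with medians of 0.36 and 1.40. These are 54.5% and 81.8% of the 11, beside 6.45% and 39.4% of all tested genes. With total-count scaling 4 were higher and none lower at 2h by edgeR, and 5 were higher and 1 lower at 4h. Spry4, a Sprouty inhibitor of receptor signalling, had 0.856 ± 0.123 CPM at 0h (SD, n = 3), 91.1 ± 34.5 CPM after 2 h, 70.4 ± 34.2 CPM after 4 h, and 14.0 ± 4.28 in rev (SD, n = 4). Dusp6, an ERK phosphatase, went from 3.35 ± 1.00 CPM at 0h to 152 ± 28.3 at 2h, 57.4 ± 31.2 at 4h and 19.9 ± 2.70 in rev. These genes were thus called at 2h, when Frs2 and Il17rd were not, and that difference in timing was not itself tested. In rev vs 4h, 8 of the 11 were lower (Spry4 -2.26, Spry2 -1.70, Dusp6 -1.44) and none was higher, 72.7% beside 30.8% of all tested genes. With total-count scaling 3 were lower and 1 was higher. In rev vs 0h, 5 of the 11 were higher and 1 was lower, 54.5% beside 11.2%. Total-count scaling left 2 higher and 1 lower there. Spry2, Spred1 and Spred3 lost their calls (edgeR adjusted p = 0.196, 0.0547 and 0.123).

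Of 19 other FGF ligands, 6 were tested. In 2h vs 0h edgeR called none, with 1 at an unadjusted p under 0.05, and DESeq2 called 1. At 4h, Fgf5, a marker of the formative epiblast, was lower than at 0h (-1.44, SE 0.204, adjusted p = 1.41e-05), with 9.03 ± 4.51 CPM (SD, n = 4) against 23.2 ± 4.96 (SD, n = 3), and in rev it was higher than at 4h (0.93, SE 0.193, adjusted p = 0.000977) at 16.7 ± 1.87 CPM. Fgf13, which acts inside the cell, was also lower at 4h than at 0h (-0.80, SE 0.266, adjusted p = 0.0206) and higher in rev than at 4h (0.75). Fgf17 and Fgf1, named after their values were seen, were higher at 4h than at 0h at 1.43 ± 0.531 and 1.85 ± 0.635 CPM (SD, n = 4), levels near that of 3 counts in the shallowest library. In 4h vs 0h 4 of the 6 were called, 66.7% beside 39.4% of all tested genes, with a median of -0.59. With total-count scaling 1 was higher and 3 were lower, and Fgf17 lost its call.

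Of 18 co-receptors and surface partners, 16 were tested, with 1 higher and 4 lower at 2h and 3 higher and 4 lower at 4h than at 0h. These are 31.2% and 43.8% of the 16, beside 6.45% and 39.4% of all tested genes. With total-count scaling 1 was higher and 9 were lower at 4h, and Sdc4 was at -0.23. Higher at 4h were Ncam1 (2.24, SE 0.254), Cdh2 (1.39, SE 0.456) and Sdc4 (0.50, SE 0.121), the last of which was also higher at 2h (0.79, SE 0.120). Cdh2 had a mean of 4.16 CPM at 0h (1 library) and 26.8 at 4h in clone 4, but 8.91 and 9.91 in clone 8. Its call was lost with total-count scaling (0.69, edgeR adjusted p = 0.0775). At 2h that scaling gave 0 higher and 3 lower of the 16, and Sdc4 lost its call (0.63, edgeR adjusted p = 0.329). Syndecans and glypicans are heparan sulphate carriers, and among them Sdc1 (-1.18), Sdc3 (-1.35), Gpc1 (-0.84) and Sdc2 were lower at 4h. Sdc3 rested on 1 to 7 counts per library at 4h (0.377 to 1.73 CPM), near the level of 3 counts there. In rev vs 4h, Sdc2 (0.82) and Gpc1 (0.40) were higher, and Ncam1 (-1.78) and Gpc4 (-0.69) were lower, 4 of 16 or 25% beside 30.8% of all tested genes. With total-count scaling 3 were higher and 1 was lower there, and Gpc4 lost its call (-0.22, edgeR adjusted p = 0.609).

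Enzymes that build or trim heparan sulphate, the chain that FGF needs to bind its receptor, were tested for 12 of 13 genes. At 2h edgeR called none, with 3 at an unadjusted p under 0.05, and DESeq2 called 1. At 4h, 5 were higher than at 0h, among them the sulphotransferase Hs3st3b1 (3.77, SE 0.475) and the 6-O-sulphatases Sulf2 (0.84, SE 0.105) and Sulf1 (0.65, SE 0.102), and 1 was lower, Hs6st2 (-1.17, SE 0.203). In rev vs 4h, 6 were lower, among them Hs3st3b1 (-2.00), Sulf2 (-0.96) and Hs6st1 (-0.62), and 2 were higher, Hs6st2 (1.21) and Glce (0.52). These calls are 50% of the 12 at 4h and 66.7% in rev vs 4h, beside 39.4% and 30.8% of all tested genes. With total-count scaling 1 was higher and 4 were lower at 4h, and Sulf2 and Sulf1 were at 0.11 and -0.05. In rev vs 4h that scaling gave 1 lower and 2 higher. Sulf2 and Hs6st1 were then at -0.55 and -0.24 and lost their calls (edgeR adjusted p = 0.107 and 0.527). Sulf2 had 57.6 ± 15.96 CPM at 0h (SD, n = 3) and 51.6 ± 10.7, 95.9 ± 32.7 and 48.7 ± 14.1 CPM at 2h, 4h and in rev (SD, n = 4).

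Below the receptor, 22 of 23 signalling genes were tested. In 2h vs 0h edgeR called none, with 5 at an unadjusted p under 0.05, and DESeq2 called 0. In rev vs 0h edgeR called none, with 6 at an unadjusted p under 0.05, and DESeq2 called 2. At 4h, 5 were higher than at 0h and 7 were lower, 54.5% of the 22 beside 39.4% of all tested genes. With total-count scaling none was higher by edgeR and 11 were lower, with Gab1 at 0.30 and Sos1 at -0.06. The docking protein Gab1 (1.01, SE 0.114) and the RAS exchange factors Sos2 (0.87, SE 0.209) and Sos1 (0.67, SE 0.138) were higher, and Hras (-0.87, SE 0.146), Shc2 (-0.82, SE 0.260) and Ptpn11 (-0.68, SE 0.103), which encodes SHP2, were lower. Gab1 had 119 ± 7.34 CPM at 0h (SD, n = 3) and 125 ± 10.1, 249 ± 41.3 and 134 ± 24.2 CPM at 2h, 4h and in rev (SD, n = 4). In rev vs 4h, Gab1 (-0.90), Sos2 (-0.77) and Cblb (-0.64) were lower, and Crk (0.67), Hras (0.47) and Ptpn11 (0.44) were higher. The 8 called in rev vs 4h are 36.4%, beside 30.8% of all tested genes. With total-count scaling 4 were higher and none was lower in that comparison. Gab1, Sos2 and Cblb were then at -0.48, -0.36 and -0.25 (edgeR adjusted p = 0.147, 0.384 and 0.557). With TMM the median of the 22 was -0.02 in 4h vs 0h, beside 0.03 over all tested genes.

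For the 3 genes called at 2h or 4h vs 0h, the most similar courses among 6238 or 6239 tested genes with a mean of at least 10 CPM were taken by Pearson correlation of log2 CPM over the 15 libraries. For Il17rd these were Sulf2 (0.98), Pml (0.96) and Wbp11 (0.95). For Frs2 they were Foxn2 (0.95), Nptn (0.94) and Dennd4c (0.94), and for Fgf8 they were Zfp236 (0.92), Trim71 (0.91) and Rbbp7 (0.90). The libraries share groups, clones and depth, and the correlations are a description.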

How the data were processed

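RNA of 15 EpiLC samples was depleted of ribosomal RNA and sequenced after library preparation with a NEBNext kit, per the labels' protocols. The authors deposited whole-number counts per gene for all samples in 1 table; bcl2fastq 2.19.1, STAR 2.5.3a and the mm10 build are named in the submitters' processing notes, while the counting tool, annotation and strand setting are not given in the sources used here. Of 52636 identifiers, 52403 were paired with a symbol. Positions, exon lengths and overlaps came from GENCODE M21 on GRCm38, the assembly behind mm10.

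The analysis used edgeR 4.0.16 under R 4.3.3. After filterByExpr (minimum count 10, minimum total 15) and TMM scaling, genes were tested over all 15 samples with group and clone terms by the robust quasi-likelihood F test, two-sided, with Benjamini-Hochberg adjustment over 13451 genes and calls at 0.05. Clone differences in response were fitted with separate group levels per clone. Log2 CPM used a prior count of 2, and ratios of counts a pseudocount of 0.5. Within groups, pairs of libraries differed by more than counting error (chi-square per degree of freedom from 5.46 to 221), so none was counted as a duplicate. Levels of 3 counts, used as floors, cover counting error only, since the reads carry no molecular identifiers. The steps were tested on simulated counts.

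The genes described and the pathway and marker lists were chosen with earlier results of these data known. From each pathway list, up to 3 genes with the largest rise and 3 with the largest fall are named among those called in 2h vs 0h, 4h vs 0h or rev vs 4h with a mean of at least 1 CPM. Other genes named in counts of 5 or fewer were chosen after their values were seen. Alternatives were other scaling, filters, DESeq2 1.42.0, other fits, thinning and leaving out libraries; leaving out all 4h libraries, the older quasi-likelihood method, the alternatives for single clone differences and total-count scaling of the lists were chosen after seeing the data.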

Additional observations from a re-analysis of the deposited data

Results flagged for a closer look

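Within a group of 4 libraries, Fgfr4 in rev clone8_2 stood at 0.830 CPM, far from the other 3 libraries by Dixon's criterion. It was the only such value among 27 combinations of gene and group, of which chance alone flags about 1 in 20, and it rests on 8 counts.

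The response differed between the clones for Fgf4 and Fgfr2 by edgeR's interaction test. Clone 8 minus clone 4, the difference in log2 fold change was 1.39 for Fgf4 and 1.62 for Fgfr2 from 0h to 4h, 1.47 and 1.41 from 2h to 4h (adjusted p = 4.78e-05 and 0.00188), and -1.31 for Fgfr2 from 4h to rev. Both 4h libraries of clone 4 were below both of clone 8 for each gene. The clone 4 libraries at 4h held 65 and 183 counts of Fgf4 and 11 and 31 of Fgfr2. Depth and marker levels also differed between these libraries, and their part in the difference was not tested.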

How the results depend on the processing

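Over the alternatives, single-gene changes and clone differences gave 813 values, of which 719 kept direction and side of the threshold, 57 lost a call, 11 gained one and 26 changed sign; the cause was not tested. With total-count scaling the number of these genes called was 0 in 2h vs 0h, 2 in rev vs 4h, 3 in rev vs 0h and 0 in the joint clone test, against 1, 4, 5 and 2 with TMM. In 4h vs 0h and 4h vs 2h it stayed at 3, but as Fgf8 higher with Fgf4 and Fgfr2 lower, and as Fgf4, Fgfr2 and Fgfr3 lower; the 2 in rev vs 4h were Il17rd and Fgfr3, the latter higher. With it, the log2 change was -0.22 for Fgf4 and -0.012 for Fgf15 in 2h vs 0h; -0.33 for Fgf15, -0.60 for Fgfr1 and -0.0084 for Frs2 in 4h vs 0h; -0.058 for Fgf8, -0.32 for Fgf15, -0.13 for Fgfr1 and -0.16 for Frs2 in 4h vs 2h; and 0.33 for Fgf8 and 0.18 for Frs2 in rev vs 4h. After thinning every library to the smallest total, which leaves fewer reads and 9322 tested genes, the numbers called were 0 in 2h vs 0h, 0 in 4h vs 0h (3 before), 1 in 4h vs 2h (3 before), 1 in rev vs 4h, 0 in rev vs 0h, 0 between clones (4 before) and 0 in the joint clone test, with Fgfr1 in 4h vs 0h at -0.048 and Frs2 in 4h vs 2h at -0.34. Fgf8 was not among the genes tested after thinning. It had been the only call in 2h vs 0h, so the 0 there does not show that Fgf8 lost its call. The same limit holds for Fgf8 in the other thinned counts of comparisons that had called it. Without the clone term, 0 were called in 2h vs 0h.

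Fgf4 in 2h vs 0h was -0.021 without all 4h libraries, -0.013 without the clone term, -0.077 with only the groups compared, and -0.049, -0.078, -0.045 and -0.11 without 0h clone8_1, 0h clone8_2, 2h clone4_1 and 2h clone4_2 (range of leave-outs -0.11 to 0.34). Leaving out 1 library gave 0 to 1 calls in 2h vs 0h, 3 to 4 in 4h vs 0h, 3 to 4 in 4h vs 2h, 3 to 5 in rev vs 4h, 1 to 5 in rev vs 0h (1 without 0h clone4_1, and 2 without rev clone4_2 or rev clone8_2) and 4 to 5 between clones, and changed the sign of Fgf8 in rev vs 4h (0.10 without 4h clone8_2), of Fgfr2 in 4h vs 0h (-0.48 to 0.043) and rev vs 0h (-0.17 to 0.23), both without 0h clone4_1, and rev vs 4h (-0.059 to 0.41; -0.031 and -0.059 without 4h clone4_1 or clone4_2), and of Il17rd in 2h vs 0h (-0.15 to 0.042; 0.042 without 0h clone4_1). The joint clone test could not be fitted without 0h clone4_1, the single clone 4 library of its group.

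With the replicate number as a block, 3 genes were called in rev vs 0h against 5, 3 against 4 in rev vs 4h, with the other group comparisons at the same counts; over 9 pairs the deviations of same-numbered libraries correlated at -0.19 to 0.26, with 1 pair over 0.1, so the numbers were not taken to pair the samples.

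Of all tested genes, 867 were called in 2h vs 0h, against 267 with total-count scaling, 1494 once mitochondrial genes and the 20 most abundant were removed, 1305 with no filter, 427 without the clone term, 63 after thinning, 1529 without the 4h libraries and 1327 by the older quasi-likelihood method; it was 308 without 0h clone4_1, 513 without 2h clone4_2 and 483 without 2h clone8_1. In rev vs 0h 1500 were called, against 770, 2289, 1993 and 793 in the first 4 of these settings, 52 after thinning, 2304 without the 4h libraries and 2934 with only the groups compared; leaving out 0h clone4_1 gave 511, rev clone8_2 826 and rev clone4_2 861. After thinning there were 458 calls against 5300 in 4h vs 0h, 430 against 5237 in 4h vs 2h, 242 against 4140 in rev vs 4h and 128 against 2492 between clones (766 with total-count scaling). The joint clone test called 428, against 114 with total-count scaling, 668 with no filter and 2 after thinning; it was 237 without 4h clone8_1, 266 without 4h clone8_2 and 286 without 0h clone8_2.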
